A study of Mus musculus with 4 samples.

Results

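NRF2, the transcription factor encoded by Nfe2l2, and its inhibitor KEAP1 were followed in mouse liver together with 8 genes that are textbook targets of NRF2. The 10 genes (Nfe2l2, Keap1, Gclc, Gclm, Slc7a11, Gsr, Txnrd1, Srxn1, Nqo1 and Hmox1) were chosen by name, and all probes whose annotation gives exactly 1 gene symbol, equal to a name on that list, were used. All 10 genes were measured, by 19 of the 33653 probes with a single symbol, and they are 10 of the 19087 genes on the arrays. No filter on low values was applied.

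On each of 4 two-colour arrays, which read RNA samples with different dyes against each other, a Wrn mutant that had received the plant polyphenol resveratrol was set against an untreated wild-type mouse. The mutants lack a working helicase domain in Wrn, a RecQ helicase. The labels give all animals as male C57Bl/6 mice of 9 months with free access to food under a reversed cycle of 12 h light and 12 h dark. Arrays 1 to 4 held mutants 1 to 4, labelled with Cy5 on the first 2 arrays and with Cy3 on arrays 3 and 4. The wild-type side held animal 2 on arrays 1 and 3 and animal 4 on arrays 2 and 4, so only 2 wild-type animals entered. Genotype and treatment differed together, so their effects cannot be told apart, and the labels do not state the dose, route or duration of resveratrol.

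In unstressed cells KEAP1 holds NRF2 and hands it to a ubiquitin ligase, so that NRF2 is degraded. When electrophiles or oxidants modify KEAP1, NRF2 accumulates, enters the nucleus, pairs with a small MAF protein and binds antioxidant response elements near its target genes. In liver the targets supply glutathione, reduce thioredoxin and quinones, break down heme and conjugate foreign compounds. NRF2 is controlled largely at the level of the protein, which RNA does not show.

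The values were log2 ratios, where 0 is equality and each unit is a doubling or halving. A positive value is likely treated mutant over untreated wild type, since the title of the series and the channel order both point that way. The dyes did not settle it, and every sign would change if the ratios ran the other way. No label states whether the authors had already turned arrays 3 and 4 to run like arrays 1 and 2. The ratios were taken as deposited, and the values with arrays 3 and 4 turned are given below for every member. Over all probes the arrays of the same dyes correlated at r = 0.19 (arrays 1 and 2) and 0.21 (arrays 3 and 4), and the 4 pairs of opposite dyes at r = -0.18 to 0.11. As deposited, 15.9% of all genes had 1 sign on all 4 arrays and 17.4% had opposite signs by dye. Gstp1, a glutathione transferase gene, and Alas2, a red blood cell marker, were picked after their values had been seen. They were far above 0 under both dye orders, at 3.10 to 4.02 and 1.90 to 3.02. The orientation was not tested. Wrn itself stood at -0.12, 0.64, 0.75 and -0.81 on arrays 1 to 4, on both sides of 0, and whether its 4 probes lie in the altered part of the gene is not given, so it checks no label. Signal intensities were not used here, so neither levels nor distance from background can be given, and the presence of hepatocyte markers cannot be checked from ratios. The number of arrays limits the precision.

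An antioxidant response element has a core that can be written TGACNNNGC. It was searched on both strands of the RefSeq windows from 250 bases before to 50 bases after each gene's start (GRCm38.p6), where 12.4% of 32851 windows held it. Of the 10 genes, 7 had a window, and 4 of these had a match: Nfe2l2, Gclm, Txnrd1 (in 1 of its 3 windows) and Srxn1. Hmox1, Gclc and Gsr had none in the table. The matches are shown because this core is the letter code through which the factor is known to reach its targets. Capitals mark the core, and each line reads in the direction of the core.
Nfe2l2, chr2:75704895-75704903, minus strand, the strand of the gene: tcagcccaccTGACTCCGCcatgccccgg
Gclm, chr3:122245423-122245431, minus strand, opposite to the gene: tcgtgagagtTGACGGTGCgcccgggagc
Txnrd1, chr10:82859114-82859122, minus strand, opposite to the gene: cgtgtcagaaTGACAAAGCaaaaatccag
Srxn1, chr2:152105552-152105560, minus strand, opposite to the gene: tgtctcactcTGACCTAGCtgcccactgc

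The first base of the core lay at -240 from the start in Nfe2l2, and the cores ran from -134 in Gclm, from -92 in Txnrd1 and from 29 in Srxn1, where the match falls just after the start. These are matches of letters and not shown sites of binding. No match was found in the windows of Keap1, Slc7a11 and Nqo1, which says only that these letters are not in those windows.

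None of the 10 genes passed the threshold of 0.05 on the adjusted p (limma with Benjamini-Hochberg adjustment over all genes), and 1 of 10, Gsr, had an unadjusted p under 0.05. Over all genes, 0.246% passed the adjusted threshold, 0.0786% higher and 0.168% lower, and 6.64% the unadjusted one. With arrays 3 and 4 turned, 0 of the 10 and 0 of all genes passed the adjusted threshold. Member means ran from -0.61 for Gsr to 0.34 for Gclm, and 8 of 10 lay below 0, against 50.7% of all genes. On each of the 4 arrays 7 of the 10 ratios were below 0 and 3 above. The mean over the 10 genes was -0.12, -0.31, -0.18 and -0.25 on arrays 1 to 4 (-0.21 ± 0.08, SD, n = 4), and their median gene stood at -0.30, beside -0.0046 for the median of all genes. In whole liver, fewer cells of a type and less RNA per cell cannot be told apart in such ratios.

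The members differed in how closely their arrays lay together. The SD over the 4 arrays ran from 0.066 for Gclm to 0.95 for Nqo1, around a median of 0.46 over all genes. The same sign on all 4 arrays was seen in 5 of the 10 genes, Gclm above 0 and Nfe2l2, Keap1, Gsr and Txnrd1 below 0, where 15.9% of all genes have it, 7.69% above and 8.16% below 0. With arrays 3 and 4 turned, 1 of the 10 had it, Gclc, and 17.4% of all genes.

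**Figure D1:**
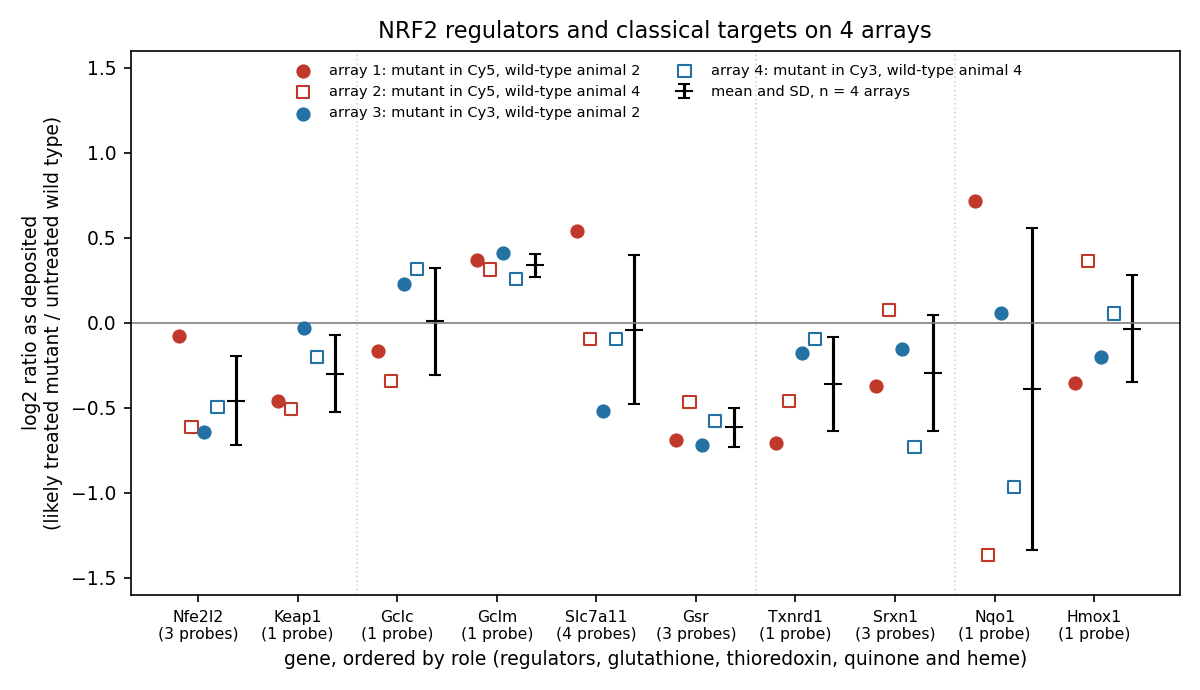
Log2 ratio as deposited (vertical axis, likely treated mutant over untreated wild type) of the 10 genes, 1 point per array, with the mean and SD over 4 arrays as black bars; colour gives the dye of the mutant and shape the wild-type animal. Gsr and Gclm form tight groups below and above 0, and Nqo1 spreads from -1.36 to 0.72, with the arrays of wild-type animal 2 above 0 and those of animal 4 below.

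Of the regulators, Nfe2l2 stood at -0.08, -0.61, -0.64 and -0.49 on arrays 1 to 4. All 4 ratios were below 0, with array 1 nearest to equality. The mean of -0.46 ± 0.26 (SD, n = 4) was 1.37-fold lower in the treated mutants if the ratios run in the likely direction. The 95% interval was -0.92 to 0.0044 on the log2 scale and the adjusted p 0.752 in limma, so the mean did not pass. The 3 probes of Nfe2l2 did not give the same picture. The probe annotated to a cDNA record (probe 23303) read -0.41, -1.48, -0.86 and -0.98, below 0 on every array. The RefSeq mRNA probe 28151 read -0.05, -0.17, 0.10 and -0.04, close to 0 throughout. The other RefSeq mRNA probe, 39397, read 0.23, -0.20, -1.17 and -0.46, on both sides of 0. Probe means thus ran from -0.93 to -0.04, and the mean of the gene rests largely on the cDNA record, whose own adjusted p over all probes was 0.592.

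Keap1, which encodes the sensor that keeps NRF2 low, was measured by 1 probe at -0.46, -0.51, -0.03 and -0.20 on arrays 1 to 4. The 4 ratios were below 0, and arrays 1 and 2, with the mutant in Cy5, were the lowest. Its mean was -0.30 ± 0.23 (SD, n = 4), with a 95% interval of -0.75 to 0.15 and an adjusted p of 0.855 in limma. The factor and its inhibitor were compared array by array: Nfe2l2 minus Keap1 was 0.38, -0.10, -0.62 and -0.29, a mean difference of -0.16 ± 0.42 (SD, n = 4). That difference was smaller than its SD over the arrays, and a two-sided exact permutation test over signs gave p = 0.50. In this test 4 arrays cannot give a p below 0.125, and 3 pairs of members were compared in this way, each with an adjusted exact p of 0.50.

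Among the genes of glutathione supply, the subunits of glutamate-cysteine ligase, which catalyses the rate-limiting step of glutathione synthesis, did not show the same pattern. Gclm, the modifier subunit, stood at 0.37, 0.31, 0.41 and 0.26 on arrays 1 to 4. These ratios lay closer together than those of nearly all genes, with an SD at percentile 0.603 of the 19087. The mean of 0.34 ± 0.07 (SD, n = 4) was 1.26-fold higher, yet its adjusted p was 0.813 in limma, which widens the error of genes with very small spread by that of other genes (95% interval -0.08 to 0.75).

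Gclc, the catalytic subunit, read -0.17, -0.34, 0.23 and 0.32. It was below 0 where the mutant carried Cy5 and above 0 where it carried Cy3, and its mean was 0.01 ± 0.31 (SD, n = 4, adjusted p = 0.998 in limma, 95% interval -0.47 to 0.49). Gclm exceeded Gclc on 3 of 4 arrays, by 0.54, 0.66 and 0.18, and on array 4 the difference was -0.06. The mean difference was 0.33 ± 0.33 (SD, n = 4), with a two-sided exact permutation p of 0.25.

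Gsr encodes glutathione reductase, which regenerates reduced glutathione with NADPH, and had the lowest mean of the 10. It stood at -0.69, -0.47, -0.72 and -0.58 on arrays 1 to 4, so all arrays were below 0 in a narrow band. The mean of -0.61 ± 0.11 (SD, n = 4) was 1.53-fold lower, with a 95% interval of -1.03 to -0.19 and an adjusted p of 0.478 in limma, so it did not pass, and its unadjusted p was 0.0112. By size its mean was at percentile 93.0 of all genes.

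All 3 probes of Gsr, each annotated to the RefSeq mRNA, were below 0 on all 4 arrays. Probe 18027 read -0.29, -0.59, -1.10 and -0.74, probe 28053 read -0.58, -0.38, -0.35 and -0.39, and probe 40468 read -1.19, -0.43, -0.72 and -0.60. It was the only member with more than 1 probe in which every probe had the same sign on every array. The order of the arrays was not shared: array 3 was lowest by the first probe and array 1 by the others. The 3 probe means were -0.68, -0.43 and -0.73. With an array left out the mean of the gene stayed between -0.66 and -0.58, and with arrays 3 and 4 turned it was 0.04.

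Slc7a11 encodes the cystine transporter that brings in the cysteine precursor of glutathione. Its mean over 4 probes was 0.54, -0.09, -0.52 and -0.09 on arrays 1 to 4, with array 1 above 0 and array 3 lowest, and -0.04 ± 0.44 overall (SD, n = 4, adjusted p = 0.988 in limma, 95% interval -0.58 to 0.50). The probes disagreed. Probe 31636 read 1.85, 1.01, -0.27 and -0.64, above 0 with the mutant in Cy5 and below 0 with the mutant in Cy3. Probe 4124 read -0.33, -0.74, 1.13 and 0.73, the opposite. Probe 19560, annotated to a cDNA record, read 0.46, -0.51, -2.35 and -0.32, and probe 13767 read 0.19, -0.15, -0.58 and -0.14. Probe means ran from -0.68 to 0.49, so the gene's mean near 0 averages probes that did not measure alike.

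**Figure D2:**
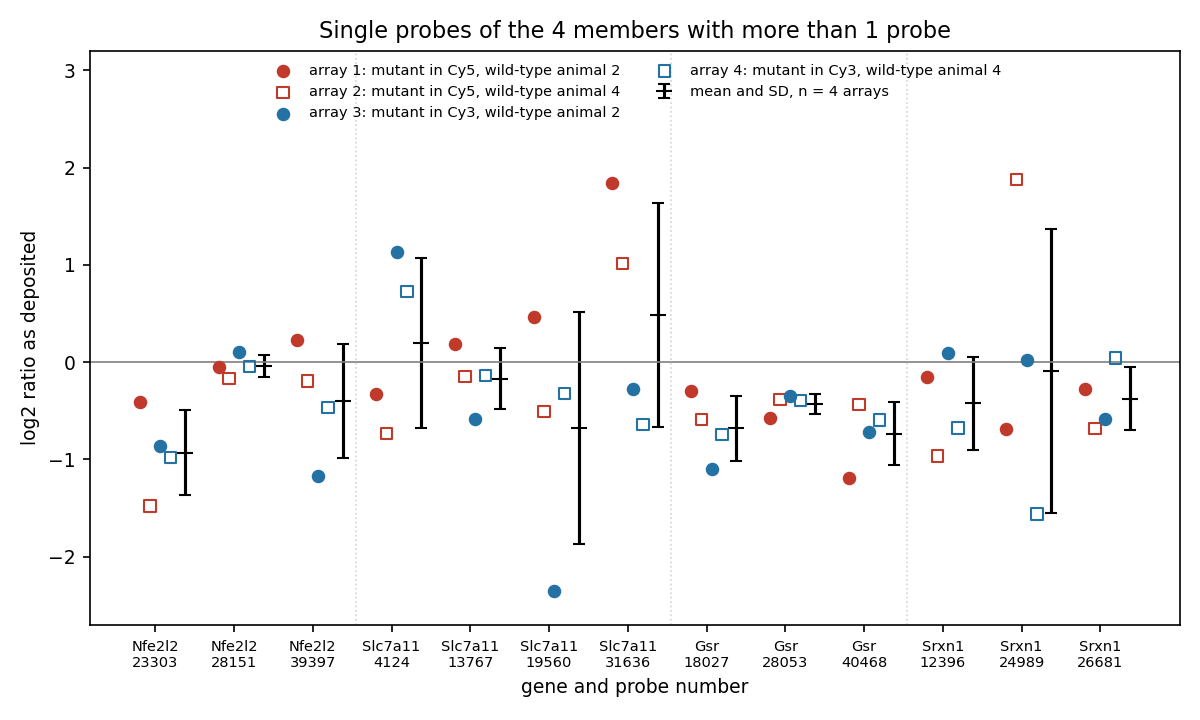
Log2 ratio as deposited (vertical axis) of each probe of Nfe2l2, Slc7a11, Gsr and Srxn1, 1 point per array, with the mean and SD over 4 arrays as black bars. The 3 Gsr probes lie below 0 on every array, whereas those of Slc7a11 have means from -0.68 to 0.49.

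In the thioredoxin branch, Txnrd1 encodes the cytosolic thioredoxin reductase and was measured by 1 probe at -0.71, -0.46, -0.18 and -0.10 on arrays 1 to 4. All were below 0, and the arrays with the mutant in Cy5 (mean -0.58) were lower than those with it in Cy3 (mean -0.14), a difference that did not pass (adjusted p = 0.685 in limma, in a fit with the dye as a term in which 8.82% of all genes had an unadjusted p under 0.05). The mean was -0.36 ± 0.28 (SD, n = 4, adjusted p = 0.829 in limma, 95% interval -0.83 to 0.11). Gsr and Txnrd1, the reductases of the glutathione and thioredoxin systems, were almost equal on arrays 1 and 2, where Gsr minus Txnrd1 was 0.02 and -0.01. On arrays 3 and 4 the difference was -0.55 and -0.48, and its mean was -0.25 ± 0.30 (SD, n = 4, two-sided exact permutation p = 0.38).

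Srxn1 encodes sulfiredoxin, which repairs overoxidised peroxiredoxins. It stood at -0.37, 0.08, -0.16 and -0.73 on arrays 1 to 4, below 0 on all but array 2, with a mean of -0.30 ± 0.34 (SD, n = 4, adjusted p = 0.873 in limma, 95% interval -0.79 to 0.20). Without array 4 the mean was -0.15. The ratio above 0 came from probe 24989, which read -0.69, 1.88, 0.02 and -1.56 and had the largest spread of the 19 probes. The others read -0.16, -0.96, 0.09 and -0.68 (probe 12396) and -0.28, -0.68, -0.58 and 0.04 (probe 26681), each above 0 on 1 array.

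Nqo1, which encodes the quinone reductase most often used as a readout of NRF2, varied most. Its probe read 0.72, -1.36, 0.06 and -0.97 on arrays 1 to 4. The arrays with wild-type animal 2 were above 0 (mean 0.39) and those with wild-type animal 4 below 0 (mean -1.16), a split in opposite signs that 8.99% of all genes showed. The difference of 1.55 between these pairs of arrays had an unadjusted p of 0.0161 and did not pass in a limma fit with the wild-type animal as a term (adjusted p = 1.00, in which 0 of all genes passed and 2.07% had an unadjusted p under 0.05). Each pair also holds different mutants, so mutant and wild-type animals cannot be told apart with 1 mutant per array. The mean over the arrays was -0.39 ± 0.95 (SD, n = 4, adjusted p = 0.911 in limma), with a 95% interval of -1.26 to 0.48, or 0.418-fold to 1.39-fold. Leaving out array 1 moved it to -0.76 and leaving out array 2 to -0.065.

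Hmox1, encoding heme oxygenase 1, which opens the heme ring, read -0.35, 0.36, -0.20 and 0.05. It too was split by the wild-type animal, in the other direction from Nqo1, with means of -0.28 on the arrays of animal 2 and 0.21 on those of animal 4 (difference -0.49, adjusted p = 1.00 in limma). The mean was -0.03 ± 0.31 (SD, n = 4, adjusted p = 0.991 in limma, 95% interval -0.52 to 0.45). Macrophages, which clear red cells, also express Hmox1. Of 9 measured Kupffer cell and macrophage markers 6 had a mean above 0 and 0 passed, and the mean of that list was -0.10 to 0.15 on the 4 arrays. Of 5 measured red blood cell markers all had a mean above 0 and 1 passed, Alas2, with a list mean of 0.68 to 1.16 on the 4 arrays. Over all genes 49.3% had a mean above 0, 0.0786% passed higher and 0.168% lower. The part of these cells in the ratio of Hmox1 was not tested.

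Read beside the sequences above, the 4 genes with a match to the core had means of -0.46 (Nfe2l2), 0.34 (Gclm), -0.36 (Txnrd1) and -0.30 (Srxn1), and the 3 with a window and no match had -0.30 (Keap1), -0.04 (Slc7a11) and -0.39 (Nqo1). Ratios above and below 0 thus occurred with the core, and the 2 sets overlapped.

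With arrays 3 and 4 turned, the member means were 0.11 ± 0.57 for Nfe2l2, -0.18 ± 0.35 for Keap1, -0.26 ± 0.08 for Gclc, 0.0038 ± 0.40 for Gclm and 0.26 ± 0.32 for Slc7a11 (SD, n = 4). They were 0.04 ± 0.72 for Gsr, -0.22 ± 0.43 for Txnrd1, 0.15 ± 0.45 for Srxn1, 0.07 ± 1.05 for Nqo1 and 0.04 ± 0.31 for Hmox1. The mean over the 10 genes was then -0.00011, and 3 of 10 were below 0. Adjusted p-values in limma ran from 0.699 for Gclc to 0.998 for Gclm. Changing the sign of arrays 3 and 4 gives genes split by dye 1 sign, and splits genes of 1 sign by dye, by arithmetic alone. In this way Gclc, with opposite signs by dye as deposited, became the gene of the 10 with the least spread. The tight values of Gclm and Gsr as deposited became opposite signs by dye.

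**Figure D3:**
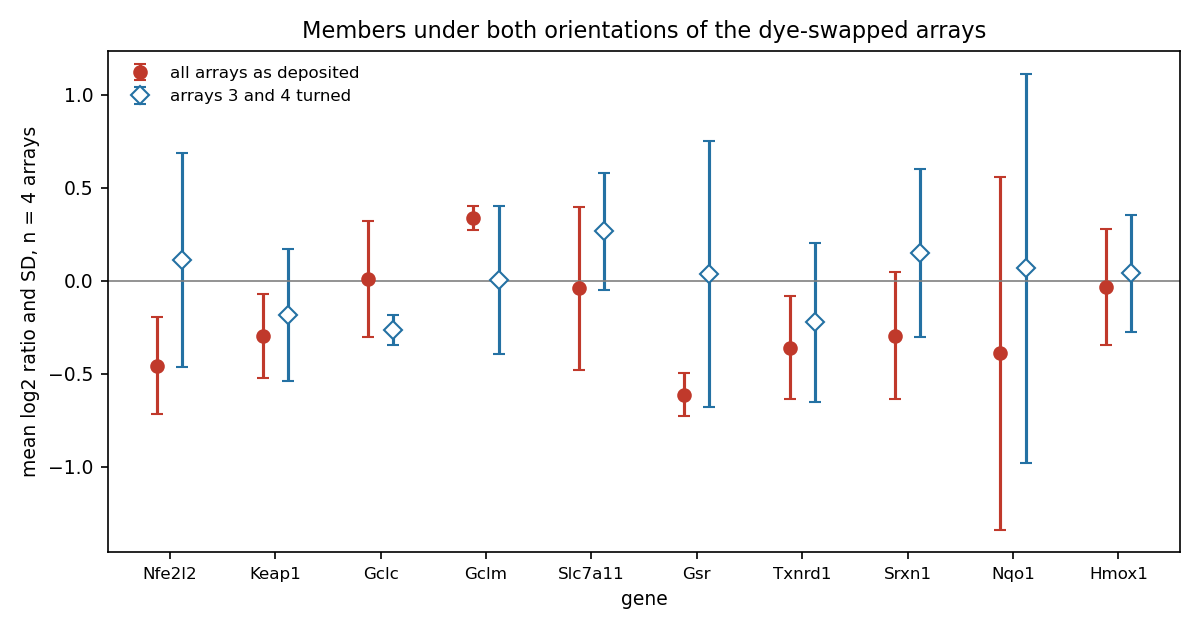
Mean log2 ratio with SD over 4 arrays (vertical axis) of the 10 genes, with all arrays as deposited (filled circles) and with the sign of arrays 3 and 4 turned (open diamonds). The mean of Gsr moves from -0.61 to 0.04 and that of Gclm from 0.34 to 0.0038, while Gclc moves from 0.01 to -0.26.

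Ordered by mean ratio the members were Gsr, Nfe2l2, Nqo1, Txnrd1, Keap1, Srxn1, Slc7a11, Hmox1, Gclc and Gclm, from low to high. Steps between neighbours were smaller than the SD over arrays of at least 1 of the 2 genes, except the last, from Gclc to Gclm, which at 0.33 was just above the 0.31 of Gclc. By Euclidean distance over the 4 arrays, among 8342 other genes with at least 2 probes, the patterns most like that of Gsr were those of Eif2s3x (distance 0.169), Hadh (0.205) and Tmem30b (0.209). Those most like Nfe2l2 were Serhl (0.111), Evc (0.151) and Gla (0.197). With 4 arrays and so many genes, near patterns arise easily, and these are a description.

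The wider pathway was described by 7 lists of other genes. Of 18 measured partners and regulators of NRF2 (20 listed), 0 passed in either direction, and the median gene was at -0.01, or 0.03 with arrays 3 and 4 turned. The lowest, Sqstm1, whose product p62 draws KEAP1 to autophagy, read 0.20, -0.53, -0.40 and -1.35. The highest, Crebbp, a histone acetyltransferase that acts as coactivator, read -0.13, 0.85, 0.59 and 0.04. Both had arrays on either side of 0.

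Of 22 measured genes of glutathione supply and use (23 listed), 0 passed, 4 were lower and 2 higher at an unadjusted p under 0.05 (3.55% and 3.10% of all genes), and the median gene was at -0.14, or 0.071 with arrays 3 and 4 turned. Glrx, the glutaredoxin that removes glutathione from proteins, was lowest at -0.85, -0.83, -1.19 and -1.32. Its mean was -1.05 ± 0.24 (SD, n = 4, adjusted p = 0.135 in limma). Its adjusted p was 0.0308 when the shared wild-type animal was fitted as a random block, whose estimated correlation was -0.37, a sign that makes the errors smaller. It was 0.277 to 0.735 with an array left out and 0.918 with arrays 3 and 4 turned, where the mean was 0.21. Glo1, a glutathione-dependent enzyme that detoxifies methylglyoxal, was highest at 0.50, 0.70, 1.11 and 0.93 (adjusted p = 0.309 in limma).

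The thioredoxin list had 12 measured of 14 genes, 0 of them past the threshold, with a median of 0.12, or -0.0051 with arrays 3 and 4 turned. Txnip, which encodes an inhibitor of thioredoxin that is induced by glucose, stood at -0.97, -1.75, -1.63 and -2.31, below 0 on every array and lowest on array 4. Its mean of -1.66 ± 0.55 (SD, n = 4) had an adjusted p of 0.0831 in limma, which became 0.0231 with that block of negative correlation and 0.0402 with a spatial trend subtracted. It was 0.158 with the arrays scaled to the same spread, 0.0940 to 0.558 with an array left out and 0.919 with arrays 3 and 4 turned, where the mean was 0.31. Txnrd3, a thioredoxin reductase best known from testis, was highest at -0.05, 1.35, 0.43 and 0.03.

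NADPH feeds both reductases. Of 6 measured genes of the pentose phosphate pathway and NADPH supply (7 listed), some of whose enzymes do not form NADPH themselves, 0 passed. A mean above 0 was found in 5 of 6 (49.3% of all genes), and 2 of 6 were higher at an unadjusted p under 0.05 (3.10% of all genes). The list mean was 0.46, 0.36, 0.42 and 0.29 on arrays 1 to 4 (0.38 ± 0.08, SD, n = 4), and the median gene was at 0.43. Idh1, the cytosolic isocitrate dehydrogenase, was highest at 0.41, 0.86, 0.89 and 0.79, and Pgls, an enzyme of the pentose phosphate pathway, lowest at -0.16, 0.06, -0.26 and -0.12. NADPH also serves lipid synthesis. With arrays 3 and 4 turned the median gene was at 0.03.

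All 9 heme and iron genes were measured and 0 passed, with a median of 0.08, or -0.055 with arrays 3 and 4 turned and -0.035 without array 3. Blvra, a biliverdin reductase that acts after heme oxygenase, was highest at 1.92, 0.03, 0.69 and -0.45. Ftl1, the ferritin light chain, was lowest at 0.80, -0.11, -1.05 and -0.85. In both the ratios lay on either side of 0.

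The largest list held glutathione transferases, other enzymes of drug metabolism and exporters. Of 32 measured (36 listed), 1 rose, 0 fell and 31 did not pass, where 0.0786% of all genes rose and 0.168% fell. At an unadjusted p under 0.05, 11 were higher and 3 lower (3.10% and 3.55% of all genes), and the median gene was at 0.14, or 0.04 with arrays 3 and 4 turned. Gstp1, a pi class glutathione transferase, rose to 3.10, 3.61, 3.76 and 4.02 on arrays 1 to 4 (3.62 ± 0.39, SD, n = 4, adjusted p = 0.00509 in limma). That call was lost without array 2 (mean 3.62, adjusted p = 0.137 in limma) and without array 4 (mean 3.49, adjusted p = 0.0888). In both of these fits 0 of all genes passed. With arrays 3 and 4 turned the mean of Gstp1 was -0.27. Cyp2a5, a cytochrome P450 that hydroxylates coumarin, was lowest at -0.75, -0.88, -0.36 and -2.13 (adjusted p = 0.519 in limma). Of the 32 genes, 12 were above 0 on all 4 arrays, Gstp1 included, and 5 below 0 on all 4 (7.69% and 8.16% of all genes). Set beside this list, the means of the 10 members lay between -0.61 and 0.34, and no test of a difference between them and this list was made.

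Among 14 measured stress genes under other transcription factors (15 listed) 0 passed. The median was -0.09, or -0.065 with arrays 3 and 4 turned and 0.02 without array 1. At an unadjusted p under 0.05, 2 were higher and 2 lower (3.10% and 3.55% of all genes). Atf3, a stress-induced transcription factor, was highest at 0.29, 0.20, 1.24 and 0.88, above 0 on each array (adjusted p = 0.684 in limma). Gadd45b, a growth arrest and stress gene, was lowest at -0.28, -3.49, -2.02 and -1.21 (adjusted p = 0.462 in limma), with all arrays below 0 and far apart.

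**Figure D4:**
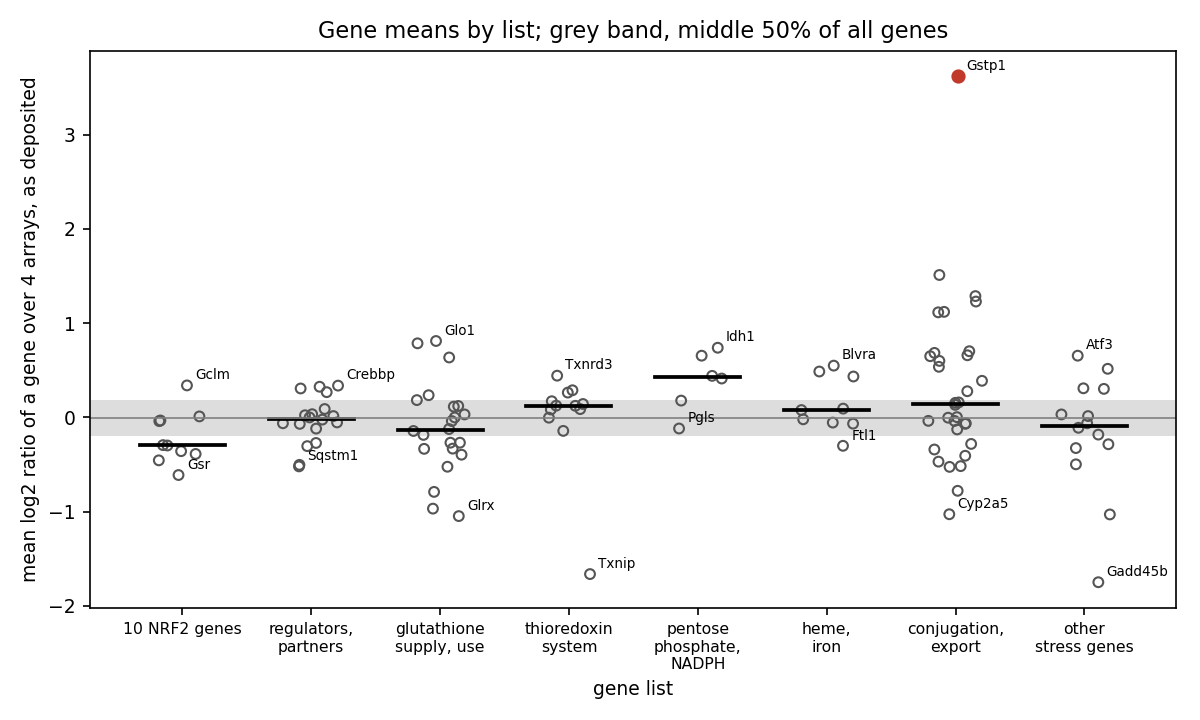
Mean log2 ratio over 4 arrays as deposited (vertical axis) of each measured gene in the 10 NRF2 genes and 7 pathway lists; filled points passed the adjusted threshold, black bars are list medians, and the grey band holds the middle 50% of all genes (-0.19 to 0.19). Gstp1 at 3.62 is the only filled point, and the 10 NRF2 genes lie between -0.61 and 0.34.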

How the data were processed

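The file holds 1 log2 ratio per probe and array as deposited by the authors (43379 probes, 0 missing). The submitters' processing notes name limma, without a version. Background correction, normalization, filters and direction are not stated in the labels. The log base is inferred from limma's scale and from extremes too wide for log10. Column medians were -0.0083 to 0.012, and the files' other columns held 0 further samples.

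Probes were named by GEO's platform annotation, with exactly 1 symbol for 33653, several for 56 (0 naming a member) and none for 9670. Probes of a gene were averaged, which gave 19087 genes, and each was tested against 0 in R 4.3.3 with limma 3.58.1 (intercept only, eBayes, prior degrees of freedom 3.63, two-sided, Benjamini-Hochberg over all genes, threshold 0.05). The fit was tested on simulated data. The mutants are separate animals, whereas the 2 wild-type animals are each on 2 arrays, so the arrays are not fully independent. The members, lists and tests were chosen with earlier results of these data known. Named were all members, and in each pathway list the genes past the threshold and the highest and lowest. The tests of pairs, of wild-type animal and of dye were added after the data had been seen. Alternatives were arrays 3 and 4 turned, each array left out, scaling, centring, the median over probes, the wild-type animal as a block, a dye coefficient, a running median over 11 x 11 spots of the 85-column layout subtracted, robust eBayes and each probe alone.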

Additional observations from a re-analysis of the deposited data

Results flagged for a closer look

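In 3 of the 10 genes both arrays of 1 pair lay above 0 and both of the other pair below. Of these, 2 were split by wild-type animal and 1 by dye, and neither count was tested against its share of all genes. Some of the ratios were near 0, such as 0.06 for Nqo1 on array 3 and 0.05 for Hmox1 on array 4. For Nqo1 the arrays of wild-type animal 2 exceeded those of animal 4 by 1.55, and for Hmox1 the same difference was -0.49, both with an adjusted p of 1.00 in limma (8.99% of all genes had such a split). For Gclc the arrays with the mutant in Cy5 minus those with it in Cy3 gave -0.53, with an adjusted p of 0.644 in limma (17.4% of all genes had opposite signs by dye). Each pair holds 2 arrays, and what sets these differences was not tested. No array stood far enough from the other 3, relative to their range, to be singled out in any of 28 named genes, 13 probes of members with more than 1 probe or 8 lists, where chance gives about 1 in 20.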

How the results depend on the processing

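The count of 0 members past limma's adjusted threshold held under every alternative run, with 0 to 4 members at an unadjusted p under 0.05. The count of all genes was 47 (1268 at an unadjusted p under 0.05), and 0 with arrays 3 and 4 turned (1518), 0 to 34 with an array left out, 15 with arrays scaled to the same spread, 194 with the shared wild-type animal as a random block (estimated correlation -0.37, below 0, which makes the errors smaller) and 122 with the spatial trend subtracted. Members with a mean below 0 numbered 8, from 7 to 9 with an array left out and 3 with arrays 3 and 4 turned, where the mean over the 10 genes was -0.00011. Turning these arrays reversed 20 named genes: Nfe2l2 (0.11), Gclc (-0.26), Slc7a11 (0.26), Gsr (0.036), Srxn1 (0.15), Nqo1 (0.067), Hmox1 (0.040), Sqstm1 (0.35), Glo1 (-0.21), Glrx (0.21), Txnip (0.31), Idh1 (-0.10), Pgls (0.070), Ftl1 (0.65), Gstp1 (-0.27), Cyp2a5 (0.21), Atf3 (-0.41), Nfe2l1 (0.031), Txn1 (-0.0075) and Prdx2 (-0.021). With an array left out, Hmox1 ran from -0.17 to 0.072, Gclc from -0.093 to 0.13, Slc7a11 from -0.24 to 0.12 and Maff from -0.29 to 0.37. Hmox1 was 0.20 with the trend subtracted. Slc7a11 was 0.20 by probe 4124 alone and 0.49 by probe 31636 alone. The causes were not tested. Depth is unknown without intensities. Each ratio already pairs a mutant with a wild type on its array, and no second group shares the replicate numbers.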

Other observations

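The genes in this paragraph were picked after their values had been seen. Nfe2l1, a relative of Nfe2l2 that governs proteasome genes, stood at -0.36, -0.58, -0.45 and -0.62 on arrays 1 to 4, below 0 on each, with a mean of -0.51 ± 0.12 (SD, n = 4) that did not pass (adjusted p = 0.641 in limma). Txn1, the cytosolic thioredoxin, at 0.23, 0.28, 0.20 and 0.34, and Prdx2, a peroxiredoxin measured by 12 probes, at 0.18, 0.35, 0.29 and 0.33, were above 0 on every array and did not pass (adjusted p = 0.866 and 0.850 in limma). Maff, a small MAF protein of the kind that pairs with NRF2 on DNA, read 1.00, 0.86, -0.97 and -0.77. Its 2 arrays with the mutant in Cy5 were above 0 and the 2 with the mutant in Cy3 below, so its mean as deposited was 0.03, and with arrays 3 and 4 turned it was 0.90. Opposite signs by dye occurred in 4 of 18 regulators, 7 of 22 glutathione genes and 4 of 14 other stress genes, beside 17.4% of all genes. In the remaining lists the counts were 2 of 12 (thioredoxin), 0 of 6 (NADPH supply), 1 of 9 (heme and iron) and 2 of 32 (conjugation and export).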
